A study of Mus musculus with 40 samples.

Results

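The comparison described here set livers of 4 Nrf2-null mice given 300 µmol/kg D3T against livers of 4 wild-type (Wt) mice given the same dose. Members were chosen by genotype and agent in the sample labels, which gave 8 of the 40 arrays in the series. All 40 mice were male C57BL/6J of 12 weeks on AIN-76A purified diet without ethoxyquin, gavaged on alternate days (3 treatments within 5 days), and each liver was collected 24 hours after the last treatment. The Nrf2-null mice (labelled Nrf2-/-) carried the null gene in every cell and descended, per the study's methods, from heterozygous mice inbred on this background. The labels do not say which mice were littermates. The groups of 4 used besides these received vehicle (Cremophor-EL, DMSO and phosphate-buffered saline) or 10 µmol/kg CDDO-Im, the dose the study matched to D3T. Each array measured the RNA of 1 mouse, so the p-values below reflect the spread between mice.

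Nrf2, encoded by Nfe2l2, is a transcription factor that the adaptor protein Keap1 holds in the cytoplasm and delivers for degradation. Electrophiles such as D3T, a dithiolethione, modify cysteines of Keap1, and Nrf2 then accumulates, pairs with small Maf proteins and binds antioxidant response elements in the regulatory DNA of its targets. In liver these targets include glutathione transferases, quinone and carbonyl reductases, glucuronidation enzymes, conjugate exporters, and enzymes that supply glutathione and NADPH. The comparison asks which transcripts differ when D3T is given to an animal without the factor.

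Livers of both genotypes carried hepatocyte RNA: the 10 hepatocyte markers had a summed linear signal of 473000 to 513000 in the Nrf2-null mice and 458000 to 482000 in the Wt mice. No exocrine pancreas marker of 7 listed passed the expression minimum, a signal of log2 4 reached by 3 or more arrays in some group. Among the 8 D3T arrays 1 stood apart. Nrf2-null replicate 4 correlated at r = 0.959 to 0.964 with its 3 group mates, which correlated at 0.992 to 0.993 with each other, and the Wt mice correlated at 0.991 to 0.994. In it 296 genes lay at least log2 1 above the mean of replicates 1 to 3 and 692 at least log2 1 below. Among the largest deviations, picked after the values were seen, were Mt2, a metallothionein (15.86 in replicate 4, against a mean of 8.97 in replicates 1 to 3), Lcn2, a siderophore-binding protein of the acute phase (14.46 against 8.66), Asns, asparagine synthetase (9.89 against 4.28), Elovl3, a fatty acid elongase (5.32 against 12.45), and Hsd3b5, a steroid dehydrogenase of male liver (6.68 against 13.19). The main counts and the affected genes are therefore given with and without this mouse. Overlaps and correlations between conditions, the counts of genes near Nfe2l2 and the promoter shares are given only with it.

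Nfe2l2 transcript was at background in the Nrf2-null mice on the probe set of highest signal. It read log2 2.85, 2.79, 2.84 and 2.87 in the Nrf2-null mice and 11.23, 11.65, 11.64 and 10.94 in the Wt mice. All 8 livers thus matched their labels, with a difference of −8.53 ± 0.16 (SE), whose size is not exact since the Nrf2-null signal lay below the expression minimum, and an exact two-sided permutation p of 0.029, the smallest that 4 against 4 allows. On a second Nfe2l2 probe set the Nrf2-null mice read 5.96 to 7.34 and overlapped with the Wt mice, at 5.68 to 6.43 (0.53, exact permutation p = 0.14), and was not used. Of the other 9 members of the Nrf2 system list none was called: Keap1 differed by −0.12 (adjusted p = 0.43) and Bach1, a repressor that competes for the same elements, by 0.40 (0.18).

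Over 9695 genes, 1 probe set each, 889 (9.17%) passed an adjusted p of 0.05 in limma. Of these, 431 (4.45%) were higher in Nrf2-null liver and 458 (4.72%) lower, 332 differed by at least 1.5-fold and 123 by at least 2-fold. The median difference over all genes was 0.01. Without Nrf2-null replicate 4 the count was 661 (6.82%), of which 507 were called in the same direction with it. A further 382 were called only with that mouse and 154 only without it, and no called gene changed sign. Centring each array on its own median moved the split to 306 higher and 656 lower, so that 31.8% of calls were higher in place of 48.5%. The fit took its spread from all 40 arrays, and the 8 D3T arrays alone gave 61 genes higher and 88 lower.

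The largest falls in Nrf2-null liver were led by 9130409I23Rik, for which no role is given here, by Fitm1, an endoplasmic reticulum protein of lipid droplet formation, and by detoxification enzymes. 9130409I23Rik read 2.49, 3.42, 4.68 and 5.51 in the Nrf2-null mice and 9.26, 9.42, 10.46 and 10.10 in the Wt mice (−5.78 ± 0.42, adjusted p = 7.58e-12). Fitm1 read 4.49, 4.19, 4.18 and 4.2 in the Nrf2-null mice and 8.71, 9.26, 10.15 and 9.18 in the Wt mice (−5.06 ± 0.45, adjusted p = 7.57e-10). For both, each Nrf2-null liver was several log2 units below every Wt liver, and the Nrf2-null signal lay near the expression minimum, so the size of the fold is not exact. Gstm3, a mu-class glutathione transferase, read 7.88, 8.73, 9.15 and 8.2 in the Nrf2-null mice and 13.06, 13.50, 12.73 and 12.69 in the Wt mice (−4.50 ± 0.35, or 22.7-fold, adjusted p = 2.35e-11). Its groups were far apart next to the spread within each, as were those of Gsta2, an alpha-class transferase. Gsta2 read 10.01, 9.93, 10.64 and 10.26 in the Nrf2-null mice and 13.36, 13.85, 13.93 and 14.15 in the Wt mice (−3.61 ± 0.35, 12.2-fold). Nqo1, the quinone reductase used as the classical Nrf2 readout, read 2.99, 3.10, 4.14 and 4.72 in the Nrf2-null mice and 7.10, 6.67, 6.99 and 8.28 in the Wt mice (−3.52 ± 0.32, adjusted p = 7.71e-10). Its Nrf2-null values straddled the expression minimum, so this fold is not exact either.

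Ces1g, a hepatic carboxylesterase, read 10.43, 9.81, 10.09 and 8.54 in the Nrf2-null mice and 12.97, 13.20, 13.03 and 13.02 in the Wt mice (−3.34 ± 0.26). Aox3, an aldehyde oxidase, read 10.50, 11.77, 11.23 and 7.46 in the Nrf2-null mice and 12.78, 12.91, 13.43 and 12.87 in the Wt mice (−2.76 ± 0.47). Replicate 4 was the lowest Nrf2-null liver for both, and without it the differences were −2.95 and −1.83. The other members of the 12 largest falls were Serpinb1a, an inhibitor of neutrophil proteases (−3.94), Dct, a melanin synthesis enzyme (−3.87), Snhg11, a noncoding small nucleolar RNA host gene (−3.26), Gstm1 (−3.24), and Aox1, a further aldehyde oxidase (−3.12). Each of the 12 kept its call when any one of the 8 D3T livers was left out. The groups of all 12 did not overlap, as the naming rule required, and over all genes they did not overlap in 13.0%.

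**Figure D1:**
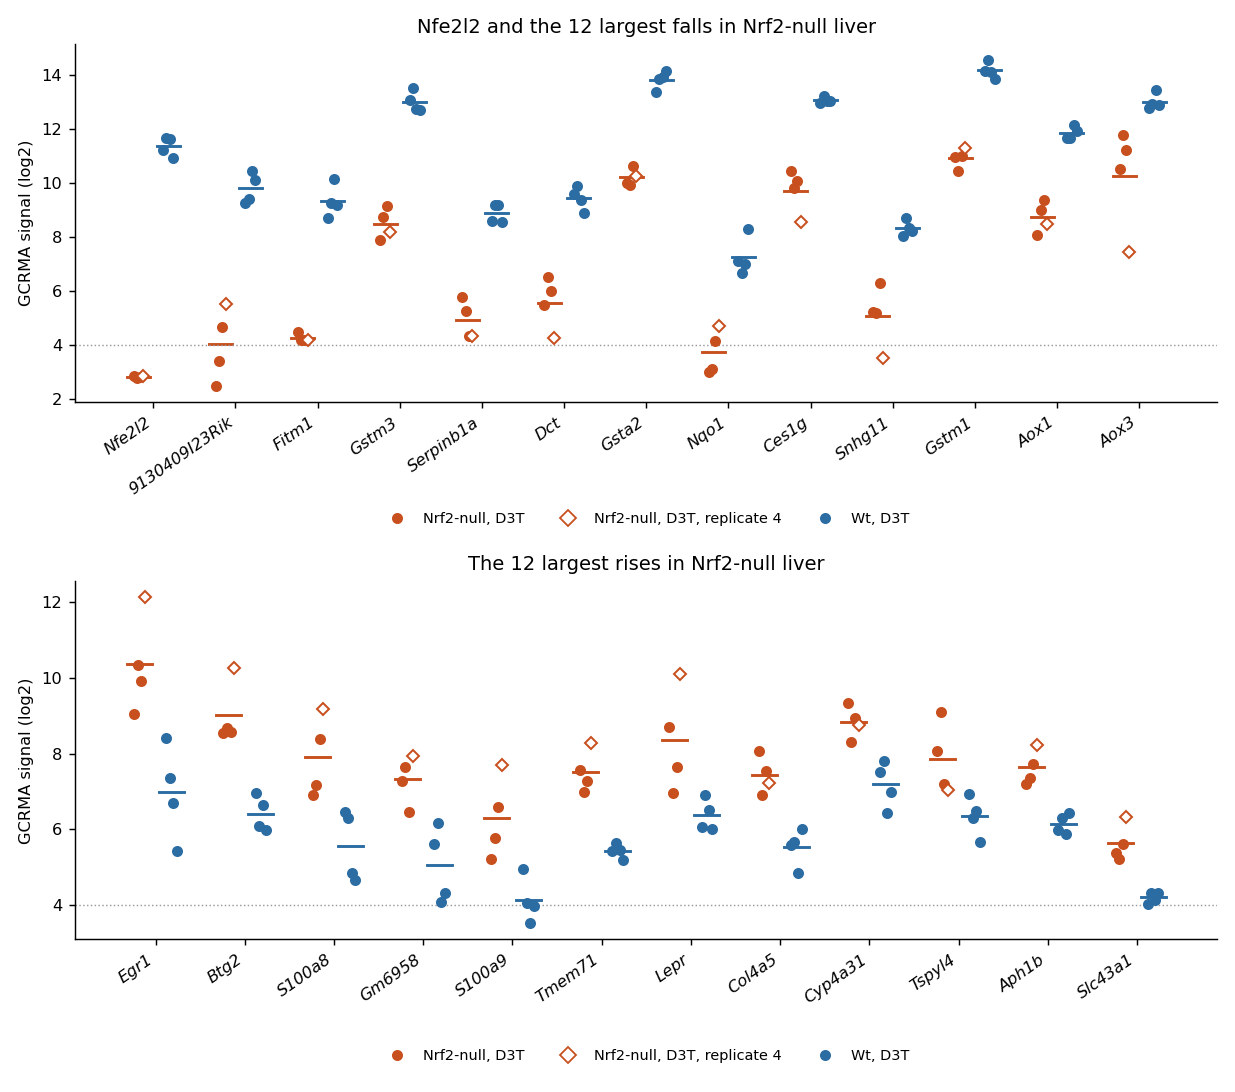
Values per mouse (log2 GCRMA signal) of Nfe2l2 and the 12 largest falls (upper panel) and the 12 largest rises (lower panel), Nrf2-null left of Wt for each gene, all under D3T. Lines are group means, open diamonds are Nrf2-null replicate 4 and the dotted line is the expression minimum of log2 4. Replicate 4 read 7.46 for Aox3 and 12.13 for Egr1, outside the range of its group mates for both.

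The 12 largest rises in Nrf2-null liver were less even between mice. Egr1, an immediate early transcription factor, read 9.06, 10.35, 9.92 and 12.13 in the Nrf2-null mice and 8.42, 7.36, 6.69 and 5.43 in the Wt mice (3.39 ± 1.08, adjusted p = 0.044). The groups did not overlap, but the call was lost on leaving out any one of 6 of the 8 livers (adjusted p 0.034 to 0.15). Btg2, an antiproliferative gene, read 8.54, 8.68, 8.58 and 10.26 in the Nrf2-null mice and 6.95, 6.09, 6.64 and 5.99 in the Wt mice (2.60 ± 0.51, adjusted p = 0.0011). Btg2 kept its call throughout, with a difference of 2.18 without replicate 4. Lepr, the leptin receptor, read 8.70, 6.96, 7.65 and 10.11 in the Nrf2-null mice and 6.07, 6.92, 6.50 and 6.01 in the Wt mice (1.98 ± 0.55), and 1.40 without replicate 4 (adjusted p = 0.12). S100a8 and S100a9, the subunits of the neutrophil protein calprotectin, differed by 2.35 and 2.18, and by 1.93 and 1.72 without replicate 4 (adjusted p = 0.16 and 0.18). Besides Btg2, the calls that held on leaving out any one liver were Tmem71 (2.10), Col4a5, a type IV collagen chain (1.90), Cyp4a31, of the fatty acid omega-hydroxylase family (1.65), and Slc43a1, an amino acid transporter (1.43). The remaining members were Gm6958 (2.29), Tspyl4 (1.5) and Aph1b, a gamma-secretase subunit (1.49). Gm6958 lost its call without Wt replicate 3 and Aph1b without Nrf2-null replicate 4, while Tspyl4 lost it on leaving out any one of 5 livers.

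Enzymes that reduce, hydrolyse or oxidise quinones, carbonyls, aldehydes and epoxides were lower as a group. Of 30 measured members, 18 fell and 1 rose, with a median of −0.59, and 14 fell and 1 rose without replicate 4 (median −0.39). The exception, named after its values were seen, was Adh7, an alcohol dehydrogenase (1.21, adjusted p = 0.0015, and 0.70 without replicate 4). Cbr1, a carbonyl reductase, read 10.06, 10.09, 10.39 and 11.26 in the Nrf2-null mice and 11.42, 11.60, 11.49 and 11.79 in the Wt mice (−1.12 ± 0.25, adjusted p = 0.0033). Nrf2-null replicate 4 was the highest of its group here, and without it the difference was −1.40. Of 19 glutathione transferases, which couple electrophiles to glutathione, 11 fell and none rose (median −0.82, and 10 fell without replicate 4). Gstm1 read 10.95, 10.46, 11 and 11.30 in the Nrf2-null mice and 14.15, 14.54, 14.11 and 13.86 in the Wt mice (−3.24 ± 0.22, 9.42-fold). Gstm4 differed by −2.67 ± 0.25. The summed signal of the 19 was 125000 to 157000 in the Nrf2-null mice and 238000 to 250000 in the Wt mice, and replicate 4 was the lowest. Members of the Gstm, Gsta, Ugt2b, Ces1, Cyp2c and Cyp4a families share sequence, and probe sets of one can read another, so the values of single members are uncertain.

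Glucuronidation enzymes fell in 7 of 11 members with and without replicate 4 (medians −0.59 and −0.49). The difference was there without D3T too, with 8 of the 11 lower under vehicle (median −0.87). In Wt liver D3T against vehicle called 3 of them lower and none higher (median −0.16). Ugdh, which makes the glucuronic acid donor, read 11.80, 11.98, 11.99 and 12.68 in the Nrf2-null mice and 13.04, 12.95, 13.37 and 13.41 in the Wt mice (−1.08 ± 0.14, adjusted p = 3.48e-06). The transferases Ugt2b35, Ugt2b1 and Ugt2b5 differed by −1.48, −1.0 and −0.89. Of 11 efflux pumps for conjugates and drugs only Abcc3 and Abcc4, both basolateral exporters, passed the test. Abcc3 read 9.68, 8.87, 8.97 and 9.06 in the Nrf2-null mice and 11.67, 11.76, 12.18 and 11.88 in the Wt mice (−2.73 ± 0.22, 6.63-fold). Abcc4 read 5.92, 5.23, 5.04 and 5.42 in the Nrf2-null mice and 6.38, 7.03, 7.20 and 6.72 in the Wt mice (−1.43 ± 0.30, adjusted p = 0.0023). For both pumps every Nrf2-null liver was below every Wt liver. None of 9 uptake transporters was called, and Slco1a1, which takes up organic anions, differed by −0.57 (adjusted p = 0.38) and by 0.14 without replicate 4. Without that mouse 1 of the 9 was called, Slc22a5, the carnitine importer, named after its values were seen (−0.68, adjusted p = 0.046, against −0.54 and 0.093 with it).

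Smaller falls were found among the enzymes that supply glutathione, thioredoxin and NADPH. Of 19 glutathione and thioredoxin genes 6 fell (8 without replicate 4) and none rose. They included Glrx, a glutaredoxin (−0.61), Gpx4, which reduces lipid hydroperoxides (−0.53), thioredoxin Txn1 (−0.51) and its reductase Txnrd1 (−0.34). Txnrd1 lost its call on leaving out any one of 4 livers, and Glrx without Nrf2-null replicate 2. Txn1 read 13.95, 13.98, 13.93 and 13.67 in the Nrf2-null mice and 14.50, 14.37, 14.44 and 14.27 in the Wt mice, so that a shift of 1.43-fold left the groups apart (adjusted p = 1.58e-06). Gclm, the modifier subunit of the first enzyme of glutathione synthesis, fell by 0.32 (adjusted p = 0.046) and Gclc, its catalytic subunit, differed by −0.54 (0.10). Srxn1, sulfiredoxin, differed by −0.25 (adjusted p = 0.52), and by −0.67 without replicate 4 (0.0014). These last 3 were named after their values were seen. Of 11 genes of NADPH supply 4 fell, and 2 without replicate 4. Malic enzyme Me1 read 12.05, 11.26, 11.80 and 10.76 in the Nrf2-null mice and 13.24, 13.19, 13.66 and 12.54 in the Wt mice (−1.69 ± 0.27, adjusted p = 0.00012), and Tkt, Pgd and Taldo1 of the pentose phosphate pathway differed by −0.94, −0.67 and −0.43. Pgd and Taldo1 were no longer called without replicate 4 (−0.35 and −0.25). Counting that mouse, Pgd lost its call on leaving out any one of 4 livers and Taldo1 any one of 3.

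The cytochromes P450 governed by the xenobiotic receptors CAR and PXR, taken with the receptors themselves, fell in 5 of 14 members, and in 2 without replicate 4. Nr1i3, which encodes CAR, read 7.95, 7.88, 8.91 and 8.55 in the Nrf2-null mice and 9.63, 10.17, 9.71 and 10.19 in the Wt mice (−1.60 ± 0.36, adjusted p = 0.0042). Its target Cyp2b10 differed by −1.86 ± 0.50 (adjusted p = 0.016). These were the pair that held without replicate 4, whereas Cyp2c54, Cyp2c37 and Cyp2c50 were not called without it (−0.91, −0.63 and −0.41 with it). Cyp2c54 lost its call on leaving out any one of 5 livers and Cyp2c37 any one of 6, that mouse among them. Cyp2b10 lost its call without Nrf2-null replicate 3 or Wt replicate 2. Among iron and heme genes 3 of 10 fell: Blvrb, biliverdin reductase B (−1.42 ± 0.17), Slc48a1, a heme transporter (−0.47), and Fth1, the ferritin heavy chain (−0.36). Slc48a1 lost its call on leaving out any one of 5 livers. Another probe set of Slc48a1 read −1.27 (adjusted p = 2.27e-08), so the size of its fall is uncertain. Hpx, hemopexin, rose by 0.26 and was not called without replicate 4. Hmox1, heme oxygenase, differed by 0.19 (adjusted p = 0.81).

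**Figure D2:**
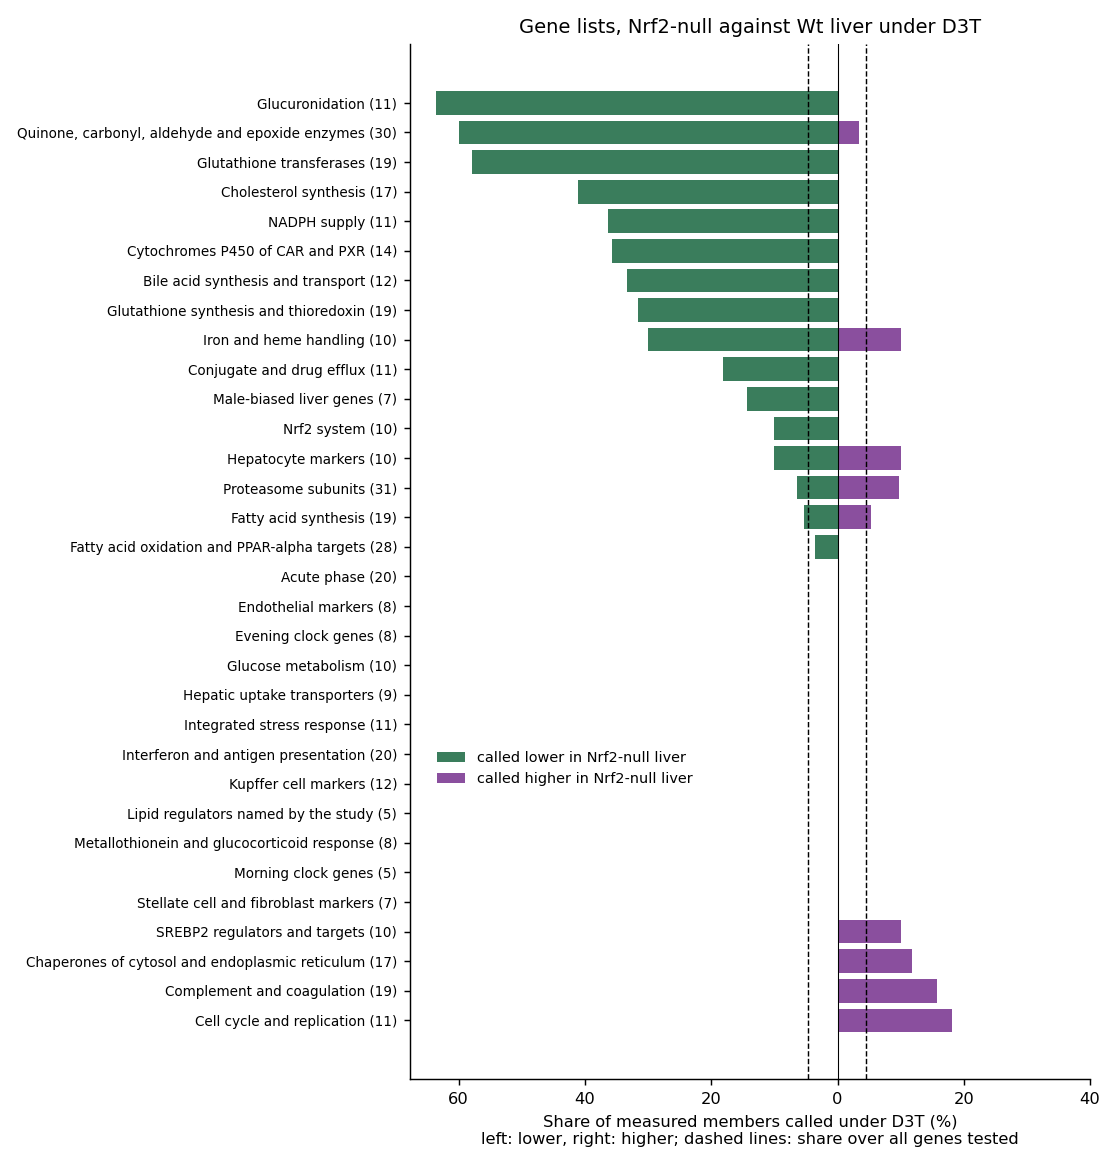
Share (%) of the measured members of each gene list that was lower (left) or higher (right) in Nrf2-null than in Wt liver under D3T, for lists with at least 5 measured members, whose number stands in brackets. Dashed lines mark the shares over all genes, 4.72% lower and 4.45% higher. Glucuronidation, with 7 of 11 lower, and the quinone and carbonyl enzymes, with 18 of 30, reach farthest to the left.

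Cholesterol synthesis enzymes were lower in Nrf2-null liver, in large part through replicate 4. None of the 17 measured enzymes had a difference above 0, 7 fell, and the median was −0.98. Without replicate 4 the median was −0.29 and 3 fell. Mvk, mevalonate kinase, read 6.58, 6.90, 7.17 and 3.73 in the Nrf2-null mice and 7.87, 7.87, 7.58 and 8.24 in the Wt mice (−1.80 ± 0.44, adjusted p = 0.0080, and −1.01 without replicate 4, 0.035). Nsdhl, a sterol dehydrogenase, read 11.56, 11.32, 11.66 and 8.15 in the Nrf2-null mice and 12.41, 12.37, 12.29 and 12.59 in the Wt mice (−1.74 ± 0.39, adjusted p = 0.0047, and −0.90 without replicate 4, 0.00052). Cyp51, lanosterol demethylase, read 12.06, 12.21, 12.49 and 9.33 in the Nrf2-null mice and 12.88, 12.78, 12.63 and 13.29 in the Wt mice (−1.37 ± 0.36, and −0.64 without replicate 4, 0.038). In all 3 the other Nrf2-null livers were closer to the Wt livers than replicate 4 was, and still below each of them. Idi1, isopentenyl diphosphate isomerase, fell by 1.5 with replicate 4 and differed by −0.71 without it (adjusted p = 0.050, just outside the threshold). The other falls, named after their values were seen, were Msmo1 (−1.11), Hsd17b7 (−1.01) and Tm7sf2 (−0.47), none of them called without replicate 4, and Lss, lanosterol synthase, differed by −0.85 (0.14).

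The summed signal of the 17 enzymes was 34000 in Nrf2-null replicate 4 and 138000 to 164000 in the other Nrf2-null mice, against 164000 to 224000 in the Wt mice. Without replicate 4 the ranges of the 2 genotypes met at their ends. The count moved between 3 and 13 as single livers were left out, with medians of −1.23 to −0.29, and no enzyme of the list was called in fits to the 8 D3T arrays or to the 16 D3T and vehicle arrays. Under vehicle none of the 17 was called (median −0.05). D3T against vehicle gave a median of −0.02 in Nrf2-null liver and of 0.96 in Wt liver, comparisons that share the D3T arrays with the genotype difference. Of 10 regulators and other targets of SREBP2, the transcription factor of the pathway, none fell and 1 rose (10% called, against 9.17% of all genes). The riser was Abca1, the cholesterol exporter (0.33, and 0.31 without replicate 4, adjusted p = 0.052). Abca1 lost its call on leaving out any one of 4 livers, Nrf2-null replicate 4 among them. Srebf2, which encodes SREBP2, differed by −0.11 (0.51).

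Of 19 fatty acid synthesis genes 1 rose and 1 fell with and without replicate 4 (10.5%, against 9.17% of all genes). None of the 5 listed lipid regulators was called either way. The list held Ppara, Lpin1, Klf13 and Ppargc1b, which the study names, and Ppargc1a. Of 28 oxidation and PPAR-alpha genes 1 fell with replicate 4 (3.57%, median −0.10), whereas 2 rose and none fell without it (median 0.05). These were Ehhadh, a peroxisomal oxidation enzyme (0.80, adjusted p = 0.010, against 0.38 and 0.39 with it), and Acaa2, a mitochondrial thiolase (0.26, 0.032, against 0.15 and 0.31 with it), both named after their values were seen. Pnpla3, a lipid droplet protein of lipogenic liver, read 8.59, 7.93, 8.75 and 3.77 in the Nrf2-null mice and 5.07, 5.16, 4.74 and 4.10 in the Wt mice. Replicate 4 lay below all Wt livers and the other 3 far above them, so the difference was 2.49 ± 0.61 with it (adjusted p = 0.0085) and 3.65 without it (1.7e-08). Under vehicle Pnpla3 averaged 3.77 in Nrf2-null and 3.96 in Wt liver, and D3T against vehicle was 3.5 in Nrf2-null mice and 0.81 in Wt mice. Both vehicle means lay below the expression minimum, so these sizes are not exact. The difference between the genotype differences under D3T and vehicle was 2.68 with an adjusted p of 0.19, and was not called. Slc25a1, the citrate carrier, fell by 0.74, and Pex11a, a peroxisome division factor, by 0.73. Pex11a lost its call on leaving out any one of 5 livers, Nrf2-null replicate 4 among them. Srebf1, the lipogenic SREBP gene, differed by 0.20 (adjusted p = 0.75) and Ppara by 0.21 (0.62).

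Bile acid synthesis and transport genes fell in 4 of 12 members and rose in none (3 without replicate 4, all genes 4.72% lower). Cyp8b1, the sterol hydroxylase that makes cholic acid, read 10.85, 10.08, 8.83 and 10.04 in the Nrf2-null mice and 11.27, 11.03, 12.58 and 12.27 in the Wt mice (−1.84 ± 0.38, adjusted p = 0.0023). The groups were apart, with replicate 3 and not 4 the lowest Nrf2-null liver. Cyp27a1, the enzyme of the acidic pathway, fell by 0.59, Fgfr4, the hepatic FGF receptor, by 0.49, and Baat, which conjugates bile acids, by 0.27. Fgfr4 lost its call without Nrf2-null replicate 4 (−0.42, adjusted p = 0.075) or without Wt replicate 1. Baat lost its call without Nrf2-null replicate 1, Nrf2-null replicate 3 or Wt replicate 3. On another probe set Baat was not called (−0.33, adjusted p = 0.11).

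Growth and fetal genes held some of the rises that did not rest on replicate 4. Ccnd1, cyclin D1, read 10.64, 11.22, 11.81 and 9.16 in the Nrf2-null mice and 8.92, 9.38, 8.81 and 8.58 in the Wt mice (1.78 ± 0.38, adjusted p = 0.0026, and 2.30 without replicate 4). Afp, alpha-fetoprotein, read 8.0, 8.64, 9.5 and 8.48 in the Nrf2-null mice and 6.82, 7.80, 6.72 and 7.62 in the Wt mice (1.42 ± 0.34, adjusted p = 0.0068). Ccnd1 overlapped through replicate 4 alone, and Afp did not overlap. Only 2 of the 6 listed fetal genes were measured. Ccne2, cyclin E2, rose by 1.1 but lost its call on leaving out any one of 5 livers, Nrf2-null replicate 4 among them. In all 2 of 11 cell cycle genes rose (18.2%, against 4.45% of all genes). With Nrf2-null replicate 4 left out 3 did, Ccnd1 and the replication helicase subunits Mcm3 (1.13) and Mcm4 (0.90), both named after their values were seen. Under vehicle 3 cell cycle genes were higher too (median 0.87, against 0.425 under D3T), as was 1 fetal gene (median 1.40, against 0.885 under D3T). Of 31 proteasome subunits 25 had differences above 0, yet the median was 0.14, 3 rose and 2 fell (16.1% called, against 9.17% of all genes). Psmb7 and Psmb5, catalytic subunits, fell by 0.66 and 0.35 and kept the call without replicate 4. Psmb5 lost its call on leaving out any one of 3 other livers. Psmb4, Psma7 and Psmc6 rose by 0.41, 0.38 and 0.28 and were not called without replicate 4. Psmb4 lost its call without Wt replicate 3 too, and Psma7 on leaving out any one of 4 livers in all. Of 17 chaperones (11.8% called) Calr and Hsp90b1, of the endoplasmic reticulum, rose by 0.50 and 0.48. Calr lost its call on leaving out any one of 6 livers and Hsp90b1 any one of 5, Nrf2-null replicate 4 among them. Of 19 complement and coagulation genes (15.8% called) F10, F5 and Plg rose by 0.33, 0.24 and 0.13. F10 kept its call without replicate 4 but lost it on leaving out any one of 3 other livers. F5 lost its call on leaving out any one of 2 livers and Plg any one of 5, Nrf2-null replicate 4 among them. Cyp2c50 and Psmc6 were named after their values were seen.

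No member was called in the lists for glucose metabolism (10 measured), acute phase (20), metallothionein and glucocorticoid response (8), interferon and antigen presentation (20), the integrated stress response (11), or evening (8) and morning (5) clock genes. Without replicate 4 this held for all but 2 genes. Pck1, the gluconeogenic carboxykinase, fell by 1.36 without it (adjusted p = 0.016) and differed by −0.80 with it (0.23), and Atf4, the transcription factor of the integrated stress response, named after its values were seen, rose by 0.60 without it (0.043) and differed by 0.45 with it (0.12). In several of these the group mean hid replicate 4. Mt1, a metallothionein, read 8.88, 10.69, 13.02 and 15.90 in the Nrf2-null mice and 11.34, 12.90, 9.48 and 11.21 in the Wt mice, a difference of 0.89 with it and of −0.37 without it. The summed acute phase signal was 601000 in replicate 4 and 385000 to 422000 in its group mates, against 363000 to 425000 in the Wt mice. A clock score, the mean of evening minus morning clock genes in log2 units, was −1.79, −2.33, −1.49 and 1.09 in the Nrf2-null mice and −1.72, 0.02, 0.19 and −0.24 in the Wt mice. Replicate 4 was thus the highest of the 8, while its group mates and Wt replicate 1 were the lowest.

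Markers of other cells were read as whole lists. The 12 Kupffer cell markers, none called, had a summed signal of 4630 in replicate 4 and of 13300 to 18900 in the other Nrf2-null mice, against 11900 to 16800 in the Wt mice. The 8 endothelial markers, none called with replicate 4, gave 2770 in replicate 4 and 7830 to 8650 in its group mates, against 6630 to 7210 in the Wt mice. Both sets were thus low in the same liver. Without it Kdr, an endothelial growth factor receptor named after its values were seen, was called higher (0.38, adjusted p = 0.023, against −0.13 and 0.81 with it). The 2 of 6 neutrophil markers that were measured, S100a8 and S100a9, gave 788 in replicate 4 and 158 to 433 in its group mates, against 40.6 to 119 in the Wt mice. The 7 male-biased genes summed to 26900 in replicate 4 and 63600 to 96000 in its group mates, against 72700 to 105000 in the Wt mice. What part the low Kupffer and endothelial signal and the high acute phase signal of this liver had in the values above was not tested, and in whole liver fewer cells of a type cannot be told apart from less RNA per cell.

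The genotype also made a difference without D3T. The Nrf2-null vehicle livers were uneven, with median correlations of 0.973 to 0.98 to their group mates, against 0.988 to 0.99 in the Wt vehicle livers. Nrf2-null vehicle replicate 1 had a clock score of 3, against −3.65 to −2.78 in its group mates. Under vehicle, on 8 other mice, 1049 of 9695 genes (10.8%) were called, and 126 genes were higher in Nrf2-null liver under both conditions, 29.2% of those higher under D3T and 22.2% of those higher under vehicle. Lower under both were 148, 32.3% of the D3T set and 30.7% of the vehicle set. Under 10 µmol/kg CDDO-Im, on 8 further mice, 1413 (14.6%) were called, of which 1090 were higher. Higher under both agents were 91 genes (21.1% of the D3T set, 8.35% of the CDDO-Im set) and lower 96 (21.0% and 29.7%). Called in the opposite direction under CDDO-Im were 21 of the genes higher under D3T and 17 of those lower. Under vehicle these counts were 2 and 0. In all 3 conditions 35 genes were higher and 68 lower. Across the 9695 genes, which are not independent replicates, the D3T differences correlated with the vehicle differences at r = 0.542 (0.518 without Nfe2l2) and with the CDDO-Im differences at r = 0.422 (0.390).

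**Figure D3:**
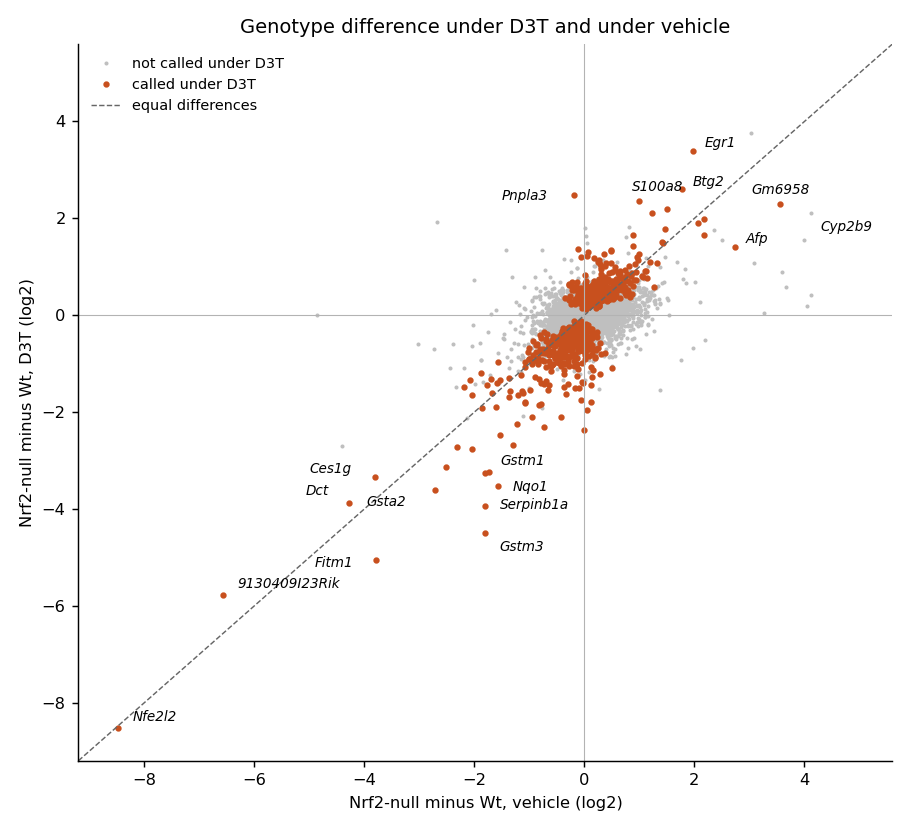
Genotype difference (Nrf2-null minus Wt, log2) of each gene under D3T (vertical) against that under vehicle (horizontal), with genes called under D3T in red and the others in grey. Gstm3, at −4.50 under D3T and −1.81 under vehicle, lies below the dashed line of equal differences, while 9130409I23Rik, at −5.78 and −6.57, lies near it.

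Most genes were not shown to differ more or less under D3T than under vehicle. The difference of the 2 genotype differences was called for 7 genes (0.0722%), with 1277 at an unadjusted p under 0.05. The count was 53 without Nrf2-null D3T replicate 4, and 0 on leaving out Nrf2-null D3T replicate 2 or either of replicates 1 and 2 of the Wt D3T or Wt vehicle mice. Gstm3 lost its call in those same 5 cases and kept it when any other of the 16 livers was left out, while Gstm1 lost it in 9 cases. Gstm3 had averages of 8.49 ± 0.56 in Nrf2-null and 12.99 ± 0.37 in Wt liver under D3T, and of 8.63 ± 0.31 in Nrf2-null and 10.44 ± 0.27 in Wt liver under vehicle (SD, n = 4 each). Its genotype difference under D3T minus that under vehicle was −2.69 (adjusted p = 0.035), and that of Gstm1 was −1.51 (0.049). Fam162a, a mitochondrial protein named after its values were seen, differed in this way by −0.40 (0.035). The other 4 were Dedd, with a death effector domain (0.47), Ppig, a cyclophilin (0.60), Endog, a mitochondrial endonuclease (0.65), and Atp6v1a, a proton pump subunit (−0.54). Each value rests on 1 probe set. On other probe sets the genotype difference under D3T was −0.14 and 0.25 for Ppig (0.57 on the one used) and −0.12 for Dedd (0.22), none called. It was −0.43 for Atp6v1a (0.04 on the one used) and 0.45 for Endog (0.39), both called. Cbr1 and Abcc4 had no genotype difference called under vehicle (0.16 and 0.11) and one under D3T (−1.12 and −1.43), yet the test between the 2 did not pass (adjusted p = 0.10 and 0.11). In Nrf2-null mice D3T against vehicle was −0.13 for Gstm3, 0.59 for Nqo1, −0.02 for Cbr1 and −0.43 for Abcc4. In Wt mice it was 2.56 for Gstm3, 2.54 for Nqo1, 1.26 for Cbr1 and 1.11 for Abcc4, with the D3T arrays shared as above. Over all genes D3T against vehicle called 397 (4.09%) in Nrf2-null liver and 410 (4.23%) in Wt liver. Without Nrf2-null D3T replicate 4 the counts were 604 and 629, the second because the fit shares its spread between groups.

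**Figure D4:**
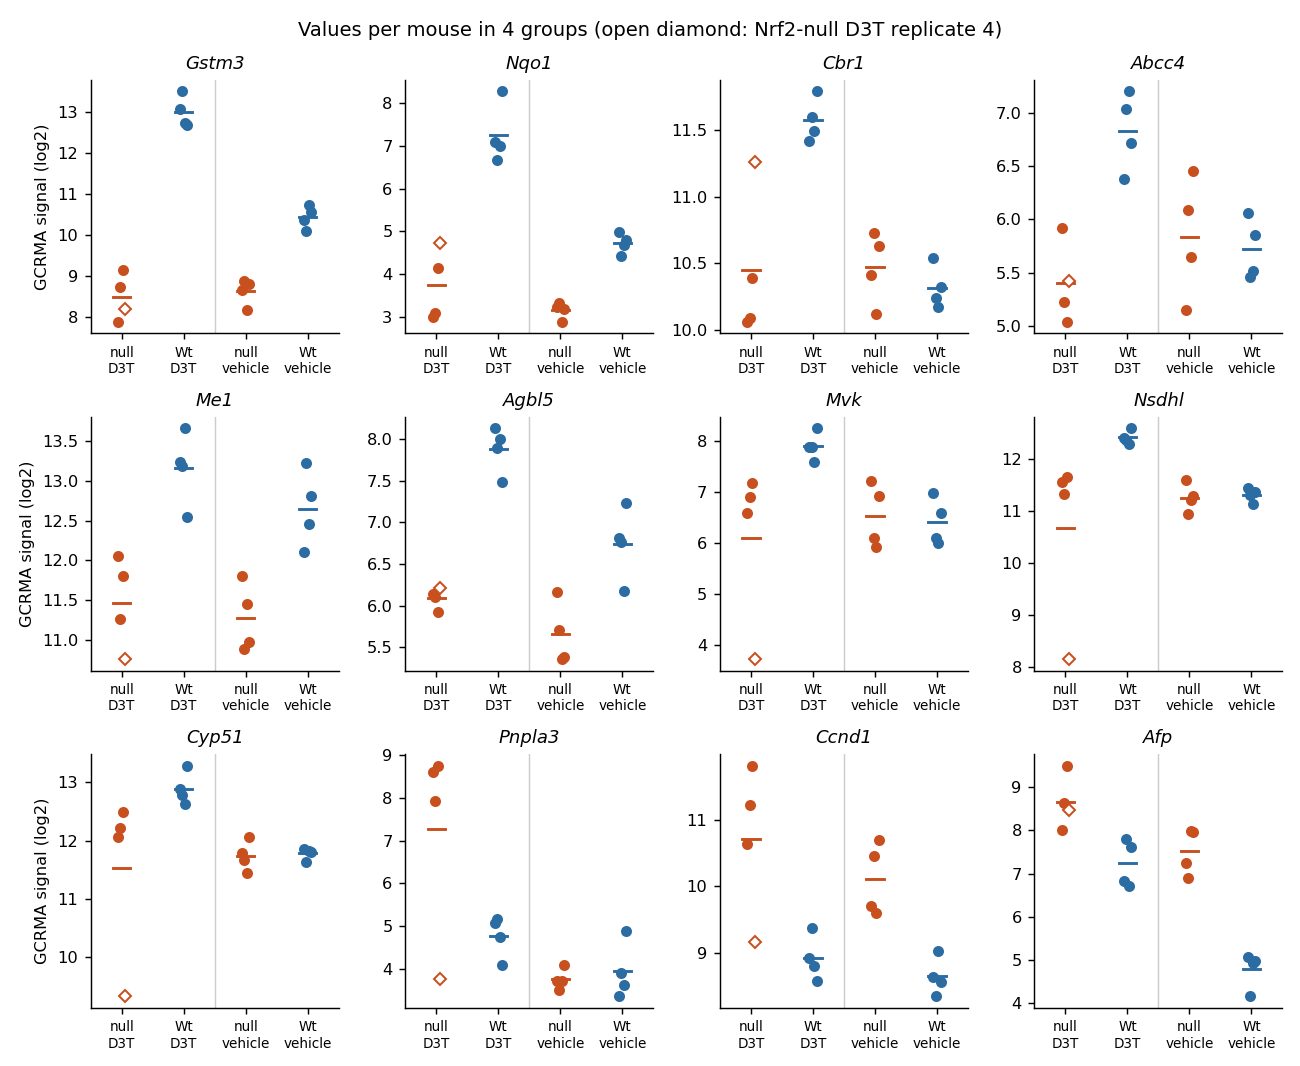
Values per mouse (log2 GCRMA signal) of 12 genes, each in its own panel with its own axis, in Nrf2-null and Wt liver under D3T (left pair) and under vehicle (right pair). Lines are group means and open diamonds are Nrf2-null D3T replicate 4. Gstm3 averaged 12.99 in Wt livers given D3T and 10.44 in Wt livers given vehicle, and at most 9.15 in Nrf2-null livers given D3T.

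Against CDDO-Im the genotype difference under D3T was called as unlike for 568 genes (5.86%), and for 442 without Nrf2-null D3T replicate 4. Agbl5, a carboxypeptidase of tubulin, read 6.14, 6.10, 5.92 and 6.21 in the Nrf2-null mice and 8.13, 7.89, 8.0 and 7.49 in the Wt mice (−1.79 ± 0.18), and its genotype difference was −1.09 under vehicle and 0.56 under CDDO-Im. The D3T and CDDO-Im differences thus ran in opposite directions (−2.35 between them, adjusted p = 4.3e-07). Gstm3, Nqo1, Gsta2 and Abcc4 had genotype differences of −4.56, −3.79, −3.77 and −1.45 under CDDO-Im, within 0.27 of those under D3T, and none of the 4 was called as unlike. Cholesterol synthesis had a median of −0.15 under CDDO-Im, and neither Mvk (adjusted p = 0.13) nor Nsdhl (0.16) was called as unlike.

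Genes beside Nfe2l2 on chromosome 2 were described separately, since flanking DNA is inherited along with a targeted gene. Of 130 measured genes within 20 Mb, Nfe2l2 left out, 10 were higher and 2 lower (9.23%), and of 628 farther off on the chromosome 27 were higher and 31 lower (9.24%), both near the 9.17% of all genes. Rbm45, an RNA-binding protein gene 0.687 Mb away, read 9.39, 9.43, 9.20 and 9.74 in the Nrf2-null mice and 8.31, 8.24, 8.4 and 7.76 in the Wt mice (1.26 ± 0.15, adjusted p = 4.7e-07). Its groups were far apart, and it differed by 0.99 under vehicle and 1.22 under CDDO-Im. Also called within 5 Mb were Prkra, an activator of the kinase PKR (−0.53), and Sp3, a transcription factor (0.36). Slc43a1 and Ppig, named above, lie 9.16 and 5.95 Mb away.

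**Figure D5:**
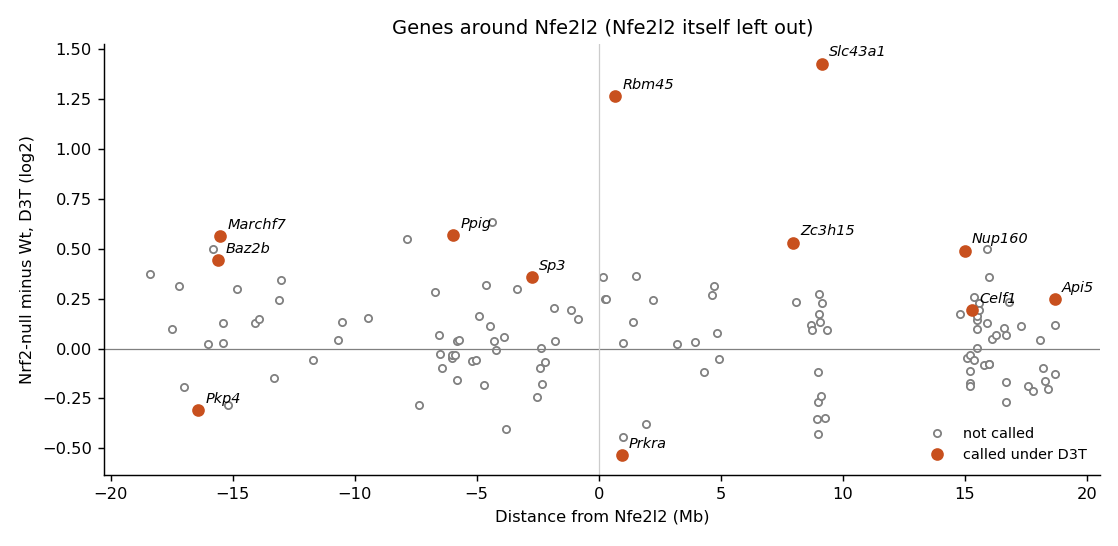
Genotype difference under D3T (log2, vertical) of measured genes within 20 Mb of Nfe2l2 against their distance from it (Mb, horizontal, negative before it on the chromosome). Filled points are the 12 called genes, led by Slc43a1 (1.43) and Rbm45 (1.26), and Nfe2l2 itself is left out.

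The core of the antioxidant response element, TGACNNNGC, was searched on both strands of RefSeq promoters (GRCm38.p6), 250 bases before to 50 after each start. Of 458 genes lower in Nrf2-null liver 395 had a promoter in the table and 75 of these (19%) held the core, against 64 of 350 higher genes (18.3%) and 1358 of all 7950 genes tested that had one (17.1%). Among genes at least 2-fold lower it was 17 of 75 (22.7%), and among genes at least 2-fold higher 5 of 26 (19.2%). Over the whole promoter set the core stood in 3781 of 27025 genes (14.0%). Elements farther from the start lie outside this window. Of the 52 named genes that were lower, 45 were in the table and 11 held the core, the disrupted Nfe2l2 among them. No match stood in the windows of Gstm3, Gsta2, Nqo1, Gstm1, Gstm4, Ces1g, Aox1, Aox3 or Cbr1. Of the 11 with the core, the 6 promoters of the largest falls are shown. They run from Nfe2l2 itself to genes of lipid droplets, bile acids, cholesterol and NADPH supply. The sequences are written 5′ to 3′ in the direction of the gene, with matches to the core in capitals.
Nfe2l2: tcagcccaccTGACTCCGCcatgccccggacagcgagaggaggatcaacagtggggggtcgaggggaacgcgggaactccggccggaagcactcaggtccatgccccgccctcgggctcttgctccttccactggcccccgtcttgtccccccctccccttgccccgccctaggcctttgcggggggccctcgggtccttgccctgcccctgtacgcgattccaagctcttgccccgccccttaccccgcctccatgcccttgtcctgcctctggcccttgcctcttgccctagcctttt
9130409I23Rik: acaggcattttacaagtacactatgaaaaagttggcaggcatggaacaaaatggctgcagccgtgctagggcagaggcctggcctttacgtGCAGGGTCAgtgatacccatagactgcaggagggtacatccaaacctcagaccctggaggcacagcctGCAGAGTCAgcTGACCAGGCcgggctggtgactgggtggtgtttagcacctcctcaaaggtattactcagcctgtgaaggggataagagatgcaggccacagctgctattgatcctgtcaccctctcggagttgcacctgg
Fitm1: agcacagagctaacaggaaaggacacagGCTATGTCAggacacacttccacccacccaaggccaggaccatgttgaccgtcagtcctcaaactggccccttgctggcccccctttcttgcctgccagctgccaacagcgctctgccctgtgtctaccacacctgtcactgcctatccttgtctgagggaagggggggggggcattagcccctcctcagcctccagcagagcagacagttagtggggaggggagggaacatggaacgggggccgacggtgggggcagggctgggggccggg
Cyp8b1: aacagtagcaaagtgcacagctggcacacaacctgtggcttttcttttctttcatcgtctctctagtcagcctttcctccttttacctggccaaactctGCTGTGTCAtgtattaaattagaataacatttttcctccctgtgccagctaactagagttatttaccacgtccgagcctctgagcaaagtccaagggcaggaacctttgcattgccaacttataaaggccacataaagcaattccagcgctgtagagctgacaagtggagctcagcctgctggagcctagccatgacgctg
Mvk: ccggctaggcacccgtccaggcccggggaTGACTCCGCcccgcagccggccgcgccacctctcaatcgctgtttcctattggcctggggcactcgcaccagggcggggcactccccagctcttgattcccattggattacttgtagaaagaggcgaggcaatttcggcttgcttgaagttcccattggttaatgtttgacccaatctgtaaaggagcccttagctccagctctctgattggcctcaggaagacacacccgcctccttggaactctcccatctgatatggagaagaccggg
Me1: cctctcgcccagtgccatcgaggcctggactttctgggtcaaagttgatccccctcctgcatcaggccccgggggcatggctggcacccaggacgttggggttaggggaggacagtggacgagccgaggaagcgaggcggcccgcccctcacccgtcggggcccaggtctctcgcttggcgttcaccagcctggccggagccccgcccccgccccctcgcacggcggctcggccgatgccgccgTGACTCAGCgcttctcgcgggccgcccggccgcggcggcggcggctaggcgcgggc

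In this build the windows are Nfe2l2 chr2:75704614-75704913 (minus strand), 9130409I23Rik chr1:181050987-181051286 (plus strand), Fitm1 chr14:55575424-55575723 (plus strand), Cyp8b1 chr9:121916256-121916555 (minus strand), Mvk chr5:114444019-114444318 (plus strand) and Me1 chr9:86695865-86696164 (minus strand). The 9130409I23Rik window held 3 matches, whose first bases lie 159, 91 and 80 bases before the start, and the others 1 each, at 240 for Nfe2l2, 222 for Fitm1, 151 for Cyp8b1, 221 for Mvk and 6 for Me1. Nfe2l2 and Mvk held the core in the same letters, TGACTCCGC. The matches describe the letters of these windows only, and no binding was measured.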

How the data were processed

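Total liver RNA of 40 mice was labelled with the 3′ IVT Express method and hybridised to Affymetrix whole-genome mouse arrays, 1 per mouse. The deposited values are log2 signals that the authors computed with GCRMA, which corrects background and normalises arrays. Its version is not given in the sources used here, nor is whether all 40 arrays were normalised in 1 run, on which comparisons between groups rest. Detection calls and a 1.5-fold filter, later steps of the study, are not part of these values. Arrays hold no read depth, so precision is set by how many mice each group holds.

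Of 45037 probe sets, 34945 carried 1 gene symbol, 932 several and 9160 none. Symbols came from the platform annotation, updated through RefSeq. A probe set was kept if 3 arrays of 1 of the 10 groups reached log2 4 (18935 kept), and the kept probe set of highest mean stood for its gene (9695 genes). Of these genes 4125 had more than 1 kept probe set, and in 4 of them kept probe sets were called in opposite directions. Levels were not compared between probe sets.

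One model over the 40 arrays (R 4.3.3, limma 3.58.1, trend and robust variances) gave each contrast, with Benjamini-Hochberg adjustment over all genes and a threshold of 0.05. Differences are Nrf2-null minus Wt, in log2, ± SE. The script was tested on simulated data. The methods' exact Wilcoxon test, other probe sets, expression minimums, normalisations, variance models, array sets, array weights, a replicate block, a clock covariate and leaving out each liver were tried as alternatives.

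The named genes were Nfe2l2, the 12 largest called rises and falls whose groups did not overlap, the genes the study names, 2 to 4 members of each list, the 6 largest called differences against vehicle and against CDDO-Im, and called genes within 5 Mb of Nfe2l2. Keap1, Hmox1 and others marked in the text were named after their values were seen. Members and lists (41 lists, 562 genes, 447 measured) were chosen with earlier results of these data known. The list of genes the study names was drawn from these samples, so its counts (7 of 18 lower, none higher) are not independent evidence. Promoters were searched with Python 3.11.15, and figures were drawn with Matplotlib 3.10.9.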

Additional observations from a re-analysis of the deposited data

Results flagged for a closer look

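In groups of 4 mice, a value was singled out where its gap to the nearest group mate exceeded, as a share of the group's range, Dixon's critical value for 4 samples, which chance alone does in about 1 in 20 groups. Of 262 pairs of a named gene and a D3T group, 27 did so, and 19 of the 27 were Nrf2-null replicate 4. In that mouse the high values were Btg2 at 10.26, Txnrd1 at 10.58, Cyp17a1 at 10.59, Sox9 at 6.08 and Sp3 at 10.92. Its low values among metabolic enzymes and transporters were Tkt at 12.25, Taldo1 at 11.17, Ugt2b5 at 14.11, Cyp2c54 at 12.51, Nsdhl at 8.15, Idi1 at 10.96, Cyp51 at 9.33 and Vnn1 at 8.48. Its other low values were Pnpla3 at 3.77, Npas2 at 2.80, Cd79b at 2.70, Oit3 at 5.82, Srebf1 at 12.15 and S1pr3 at 3.66. Elsewhere among the Nrf2-null mice, Fitm1 was high in replicate 1 (4.49), Blvrb high in replicate 3 (11.60) and Ppara low in replicate 2 (10.80). Among the Wt mice, Baat (12.27) and Cps1 (15.29) were high and Psmb4 (12.90) low in replicate 3, Atp6v1a was high in replicate 2 (10.32), and Dedd low in replicate 4 (8.86).

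For 6 named genes the genotype difference under D3T minus that under vehicle passed the test, a number set by the rule that named the 6 largest called differences. These were Gstm3 (−2.69), Gstm1 (−1.51), Endog (0.65), Ppig (0.60), Atp6v1a (−0.54) and Dedd (0.47). Over all genes 7 passed, and this count lay between 0 and 53 as single mice were left out and was 1 in a fit to the 16 D3T and vehicle arrays. For 14 named genes the genotype difference under D3T minus that under 10 µmol/kg CDDO-Im passed, and the same rule had supplied 6 of them. Those more negative under D3T were S1pr3 (−2.57), Agbl5 (−2.35), Fitm1 (−2.30), Snhg11 (−2.19), Hspb1 (−2.04) and Prkra (−0.78). Those less negative or more positive under D3T were 9130409I23Rik (2.06), Ccne2 (1.54), Ugt2b35 (0.79), Ugdh (0.77), Ppig (0.58), Psmb4 (0.53), Txnrd1 (0.50) and Atp6v1a (0.38). S1pr3, a sphingosine phosphate receptor, and Hspb1, a small heat shock protein, ran in opposite directions, at −0.64 and −1.01 under D3T against 1.93 and 1.03 under CDDO-Im, although neither D3T difference was called by itself.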

How the results depend on the processing

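The cause of a change in count was not tested unless the setting itself gives it, as with fewer arrays or genes. The main counts were 431 higher, 458 lower, 1049 under vehicle, 1413 under CDDO-Im, 7 against vehicle and 568 against CDDO-Im. The fit to the 8 D3T arrays gave 61 higher and 88 lower, and the fit to the 16 D3T and vehicle arrays 114 higher, 157 lower, 372 under vehicle and 1 against vehicle. Array weights gave 665 higher, 2203 under CDDO-Im, 63 against vehicle and 1004 against CDDO-Im. Without an expression minimum 4 were called against vehicle and 319 against CDDO-Im. Centring on array medians gave 27 against vehicle, quantile normalisation again 41, and plain variances 2. The methods' exact Wilcoxon test, at an unadjusted p under 0.05, which 4 against 4 reaches only where the groups do not overlap, counted 695 higher, and with the 1.5-fold minimum 137 higher and 191 lower. After Benjamini-Hochberg adjustment it called 0 genes (smallest adjusted p 0.22), against 889 in limma. Leaving out 1 mouse gave 253 higher (Wt replicate 3) to 468 (Nrf2-null replicate 1), 294 lower (Wt replicate 3) to 489 (Wt replicate 4), 0 to 53 against vehicle (Nrf2-null replicates 2 and 4), 328 to 748 against CDDO-Im, 581 to 1178 under vehicle and 868 to 1425 under CDDO-Im.

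Of the named genes called under D3T, Dedd alone turned sign under the settings tried, to −0.12 and no call on the probe set of largest interquartile range. Of those not called, the sign turned for Ppara (−0.26) on that probe set, Klf13 (−0.019) and Atp6v1a (−0.0068) after centring, Slco1a1 (0.076), Mt1 (−0.12), Cd79b (0.067) and Klf13 (−0.13) with array weights, and Ppargc1b (0.041) with the clock covariate. Leaving out 1 D3T mouse turned the sign of 7 genes not called over all 8, with ranges of −0.90 to 0.14 for Slco1a1, −0.37 to 1.97 for Mt1, −0.42 to 0.10 for Cd79b, −0.78 to 0.026 for Stab2 and −0.13 to 0.12 for Klf13 (all turned by Nrf2-null replicate 4, and Klf13 by Wt replicate 1 too), −0.50 to 0.070 for Upp2 (Nrf2-null replicate 3) and −0.28 to 0.015 for Ppargc1b (Wt replicate 3). Of 83 named genes called, 48 kept the call whichever D3T mouse was left out.

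Equal replicate numbers gave little sign of paired mice: same-numbered Nrf2-null and Wt deviations correlated at −0.166 to 0.151 under D3T and −0.084 to 0.106 under vehicle. Between Wt D3T and Wt vehicle mice they correlated at −0.161 to 0.201, and other numbers at up to 0.166. Such correlations cannot exclude a pairing that left little trace in expression. The replicate block gave 424 higher and 461 lower, 848 of them shared with the fit without it, and 0 genes against vehicle.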
